A study of Mus musculus with 2 samples.

Results

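The cytosolic ribosomal protein genes were described in RAW264.7, a macrophage line of mouse origin, carrying the retroviral vector MSCV either with miR-155 or empty. The genes were taken by symbol, as every gene whose platform symbol is Rpl or Rps followed by a number, leaving out the Rps6k kinases and pseudogenes. The rule found 47 genes among the 18193 with a probeset of 1 symbol, 24 Rpl and 23 Rps, spread over 17 chromosomes, and 43 of them passed the signal filter that kept 9097 genes. It took Rps19bp1, whose product binds Rps19 and is no ribosomal protein by its name, and it left out the stalk proteins Rplp0 and Rplp2 and the small-subunit proteins Rpsa and Fau, which are given beside the members. Probesets with several symbols carried 45 symbols of the same form. Of these, 30 were carried only by such probesets and were not assigned a value. The others were members, and their readings in such probesets were not assigned to them.

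In the miR-155 group the MSCV vector used for infection encoded mir-155, and in the empty-vector group it carried no insert. Puromycin at 7 µg/ml was used to select both groups, single clones were grown by limiting dilution, and each RNA was a pool of 5 clones. One pool per group was hybridised to 1 Affymetrix array, so the study held 2 arrays and no replicate. No test, standard error or p-value is possible, and every value below describes these 2 arrays only. In pooled RNA, fewer cells carrying a transcript and less of it per cell cannot be told apart.

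The cytosolic ribosome has a large subunit, which forms peptide bonds, and a small subunit, which reads the mRNA. Each subunit is ribosomal RNA covered by proteins that are needed in nearly equal numbers, and the genes for these proteins are among the most strongly transcribed in growing cells. Their mRNAs typically begin with a 5′ terminal oligopyrimidine (TOP) tract, a C followed by further pyrimidines, through which mTOR signalling controls their translation. A microRNA represses mRNAs that pair with its seed, mostly at sites beyond the coding region.

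The vector-encoded microRNA is shown first, with its seed in capitals, bases 2 to 8 counted from the 5′ end. Its sequences are those of RefSeq for build GRCm38.p6, where the 5p arm lies at chr16:84714143-84714165 and the 3p arm at chr16:84714182-84714202, both on the plus strand.
mmu-miR-155-5p: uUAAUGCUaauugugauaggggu
mmu-miR-155-3p: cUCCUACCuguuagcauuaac

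A RefSeq promoter entry (GRCm38.p6, 250 bases before to 50 after the annotated start) was found for 41 of the 47 genes, with 49 starts. The motif searched was a C at the annotated first base followed by at least 4 bases that are C or T, on the transcribed strand only. It was present at 7 of the 49 member starts (14.3%), at 2.51% of the 32851 starts in the table and at 0 of 73 starts of the mitochondrial ribosomal protein genes. Allowing such a tract to begin up to 10 bases to either side, 27 of the 49 member starts (55.1%) held it, against 30.7% of all starts and 42.5% of the mitochondrial ones. The 7 starts are shown to let the shared feature be seen, as 30 bases centred on the annotated start and read along the transcribed strand, with the tract in capitals; they are followed by the starts of Rps25 and Rpl12, the kept genes with the lowest ratios, which have none at the first base. A match is a description of the annotated start and not evidence of a TOP mRNA.
Rpl35, chr2:39005117-39005146, minus strand: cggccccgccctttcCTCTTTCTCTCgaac
Rps10, chr17:27635230-27635259, minus strand: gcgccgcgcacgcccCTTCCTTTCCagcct
Rps18, chr17:33955651-33955680, minus strand: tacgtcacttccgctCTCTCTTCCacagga
Rps6, chr4:86857353-86857382, minus strand: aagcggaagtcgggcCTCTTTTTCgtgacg
Rpl38, chr11:114668565-114668594, plus strand: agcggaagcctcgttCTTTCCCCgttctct
Rps27, chr3:90213634-90213663, minus strand: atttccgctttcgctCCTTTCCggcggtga
Rpl14, chr9:120571502-120571531, plus strand: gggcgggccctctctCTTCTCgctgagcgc
Rps25, chr9:44407699-44407728, plus strand: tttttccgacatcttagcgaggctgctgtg
Rpl12, chr2:32961697-32961726, plus strand: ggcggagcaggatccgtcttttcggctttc

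The labelled cell type was checked against its markers. Of 10 macrophage markers 9 passed the signal filter, among them Csf1r, Cd68, Lyz2 and Cd14, while Mrc1 did not. Of the 9, 2 were at least 1.5-fold higher on the miR-155 array, Cd14 (log2 ratio 1.26) and Fcgr1 (0.66). Another 2 were lower, Adgre1 (−0.71) and Spi1 (−0.61). Of all genes kept, 11.3% differed by 1.5-fold in either direction. None of the 4 B cell, 5 T cell, 4 neutrophil and 5 fibroblast markers on the array passed it. Only Ngp (29.6 on the miR-155 array against 18.7 on the empty-vector array) and Cd8a (26.5 with miR-155 against 14.8 with empty vector) of these had a reading above the filter's signal of 25.8. The array medians were 14.1 and 15.4 (miR-155 and empty vector), and the highest signals 11385 and 11141.

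The ribosomal protein genes read alike on the 2 arrays. The median log2 ratio of miR-155 over empty vector was 0.023 over the 43 genes kept, with a robust SD (scaled median absolute deviation) of 0.087, and 26 genes lay above 0 and 17 below. Of all genes kept, 58.0% lay below 0. None of the 43 differed by 1.5-fold in either direction, whereas 11.3% of the 9097 genes kept did, 5.32% higher and 5.99% lower in the miR-155 array. At 2-fold the counts were 0 members and 3.35% of the genes kept. At 1.2-fold, a threshold chosen after the values were seen, 1 member differed, Rps27, against 36.3% of all genes kept. This count depended on the scaling: it was 4 with the median of the genes kept set to 0 (Rps27, Rps29, Rps6 and Rpl27a) and 0 with an offset of 50. The median of all genes kept was −0.048 and their robust SD 0.26. Genes are not replicates, so these spreads describe the gene set and measure neither clone-to-clone nor array-to-array error.

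**Figure D1:**
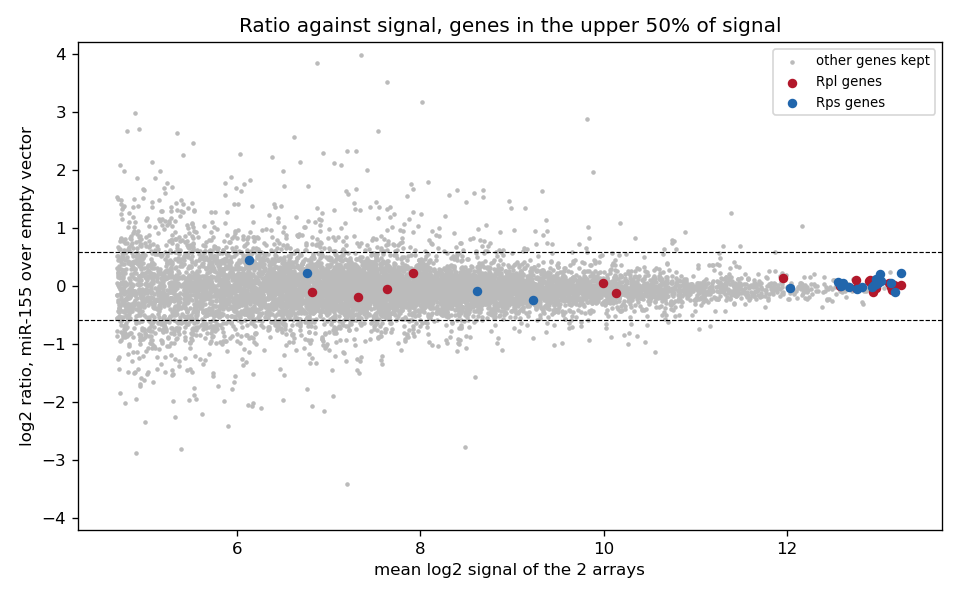
Each point is a gene, with the mean log2 signal of the 2 arrays on the horizontal axis and the log2 ratio of miR-155 over empty vector on the vertical axis. Grey points are other genes, red points Rpl genes and blue points Rps genes, and the dashed lines mark 1.5-fold. All 43 coloured points lie between the lines, and most sit at the bright end, where the grey points are also narrow.

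The members were mostly bright probesets, and the spread of ratios depended on signal, so they were set beside other genes of like signal. A signal orders probesets, not mRNA amounts, and is used here only for this purpose. At a mean signal of at least 4096 there were 32 members and 96 other genes. The members had a median of 0.028 and a robust SD of 0.062, and the other genes a median of −0.035 and a robust SD of 0.084. At 1.5-fold, 0 of the 32 members and 1 of the 96 other genes differed, and at 1.2-fold 0 and 4. Among the other genes the robust SD was 0.15 for signals of 1024 to 4096, 0.20 for 256 to 1024, 0.31 for 64 to 256 and 0.52 below 64. Most of the contrast with all genes was therefore also present in other bright genes, and whether the members differ from these was not tested.

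**Figure D2:**
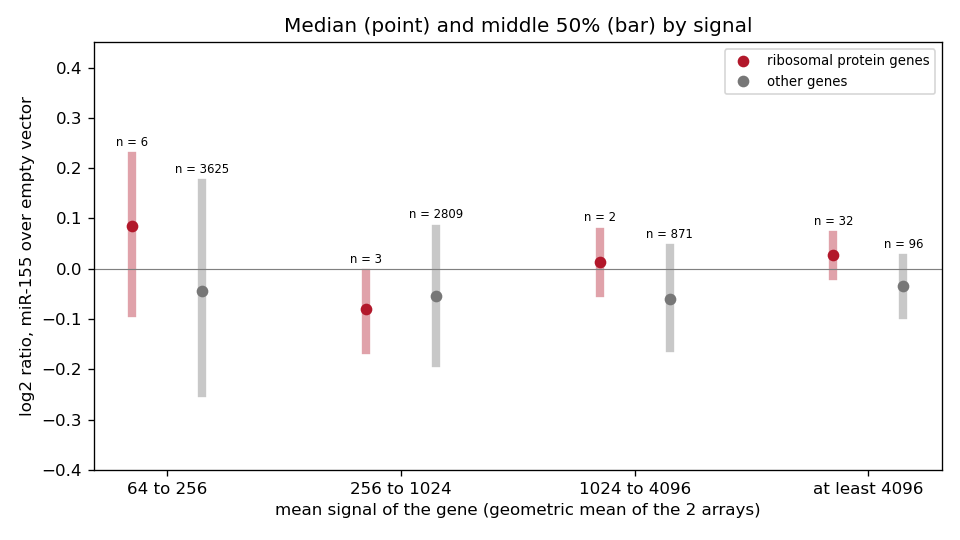
Points are medians and bars the middle 50% of log2 ratios (miR-155 over empty vector) in 4 ranges of mean signal, ribosomal protein genes in red and other genes in grey, with the number of genes above each bar. At signals of at least 4096 the 32 ribosomal protein genes have a median of 0.028 and the 96 other genes one of −0.035, and the bars overlap; the dimmer ranges hold only 2 to 6 ribosomal protein genes each.

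The 5 brightest members read between 8894 and 10510.5 on both arrays. Rpl38, a large-subunit protein needed in mice for normal axial skeleton patterning, read 9762 on the miR-155 array and 9660 on the empty-vector array (log2 ratio 0.015). Rps29, a zinc-binding small-subunit protein, read 10510.5 with miR-155 against 8942 with empty vector (0.23). Rps3a1, a small-subunit protein, read 8987 with miR-155 against 9631 with empty vector (−0.10). Rpl35, which lies at the rim of the tunnel through which the new peptide leaves, read 9288 with miR-155 against 9143 with empty vector (0.023). Rpl7a, of the large subunit, read 8894 with miR-155 against 9319 with empty vector (−0.067). Only Rps29 of these lay more than 0.15 from 0.

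**Figure D3:**
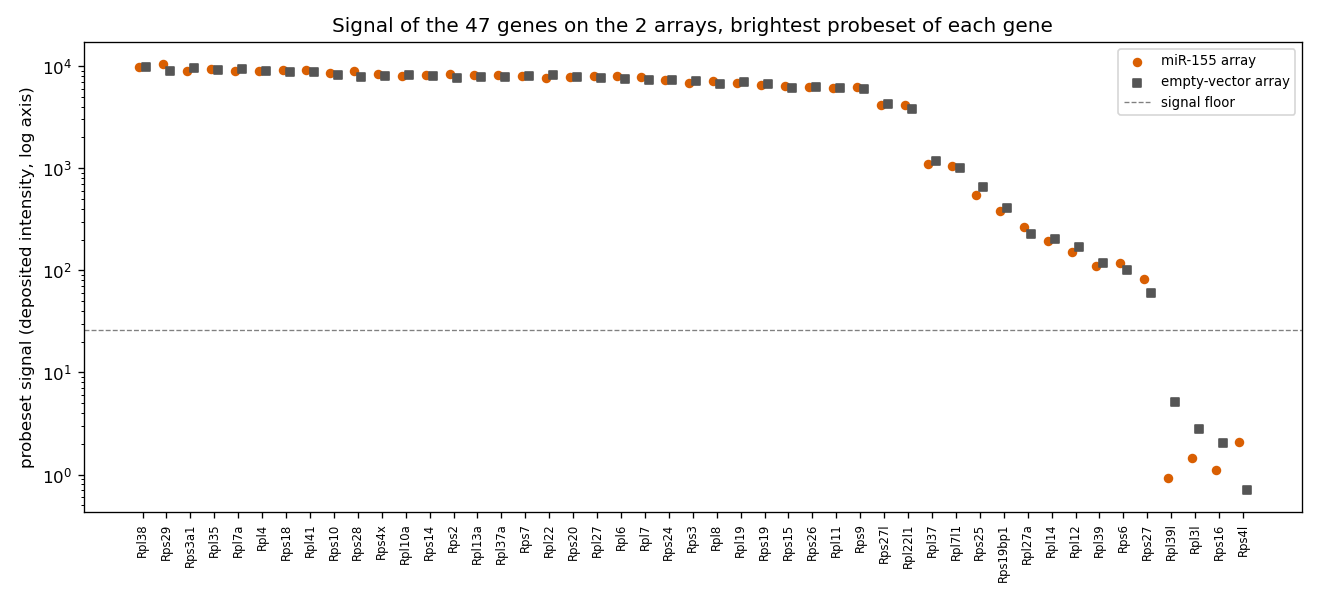
Probeset signals of the 47 genes, brightest first, on a log axis, with the miR-155 array as orange circles left of the empty-vector array as grey squares. The pairs nearly coincide for the genes at the left; the 4 genes below the dashed signal floor of 25.8 (Rpl39l, Rpl3l, Rps16 and Rps4l) have pairs that lie apart.

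In the large subunit, the 22 genes kept had a median of 0.019 and ranged from −0.19 to 0.22. Rpl27a was highest, at 262 with miR-155 against 225 with empty vector (0.22), followed by Rpl22l1, a paralog of Rpl22, at 4164 with miR-155 against 3793 with empty vector (0.13). Rpl8, of the core near the peptidyl transferase centre, read 7193 with miR-155 against 6668 with empty vector (0.11), and Rpl6 read 7935 with miR-155 against 7388 with empty vector (0.10). Both were higher in the miR-155 array by less than 0.15. Rpl4, whose loop lines the exit tunnel, read 8982 with miR-155 against 9023 with empty vector (−0.0065), and Rpl11, which carries the smallest ribosomal RNA into the large subunit and can bind MDM2, read 6147 with miR-155 against 6094 with empty vector (0.012). These were among the genes nearest 0.

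At the lower end of the large subunit, Rpl12, part of the base of the stalk that recruits elongation factors, read 150 on the miR-155 array and 170.1 on the empty-vector array (−0.19). Rpl37 read 1086 with miR-155 against 1171 with empty vector (−0.11). Rpl22, which also binds viral RNA in infected human cells, read 7578 with miR-155 against 8146 with empty vector (−0.10), and the exit tunnel protein Rpl39 read 109 with miR-155 against 117 with empty vector (−0.10). Each of these ratios was smaller than the robust SD of other genes of like signal (0.31 for Rpl12 and Rpl39, 0.15 for Rpl37), except that of Rpl22, where the SD was 0.084. Of the 8 listed proteins at the rim of the exit tunnel 4 were kept, Rpl19, Rpl22, Rpl35 and Rpl39, with a median of −0.068.

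Among the Rps symbols, the 21 genes kept, Rps19bp1 included, had a median of 0.032 and ranged from −0.24 to 0.45. They are taken here as the small subunit. Rps27, a zinc finger protein, had the highest ratio of any member kept, at 81.8 with miR-155 against 60.0 with empty vector (0.45). Its only probeset with 1 symbol was also the dimmest of the 43, and other genes of that signal had a robust SD of 0.31. Rps6, the substrate of the S6 kinases, read 117 with miR-155 against 100.1 with empty vector (0.22). Rps6 was dim as well, and no further probeset with 1 symbol for Rps6 or Rps27 had both readings above the floor. Probesets with several symbols were not assigned to either gene, so brighter readings of them may exist. Rps28 read 8911 with miR-155 against 7722 with empty vector (0.21), and Rps2, near the channel where mRNA enters, read 8385 with miR-155 against 7703 with empty vector (0.12).

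Rps25, needed for initiation at some viral internal entry sites, had the lowest ratio of any member kept, at 551 on the miR-155 array and 653 on the empty-vector array (−0.24). The robust SD of other genes of like signal was 0.20. Rps19bp1 read 382 with miR-155 against 404 with empty vector (−0.08). The difference between the medians of the large and the small subunit was −0.013, or −0.023 with Rps19bp1 left out, and the 2 subunits overlapped over most of their range. Its sign was not stable, at 0.044 without the _s_at and _x_at probesets and 0.023 in the upper 25% of signal. Of 9 genes mutated in Diamond-Blackfan anaemia, a human failure of red cell production, 6 were measured by a probeset with 1 symbol, including Rps19 (6519 with miR-155 against 6587 with empty vector, −0.015) and Rps10 (8568 with miR-155 against 8093 with empty vector, 0.08). They ranged from −0.015 to 0.08.

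**Figure D4:**
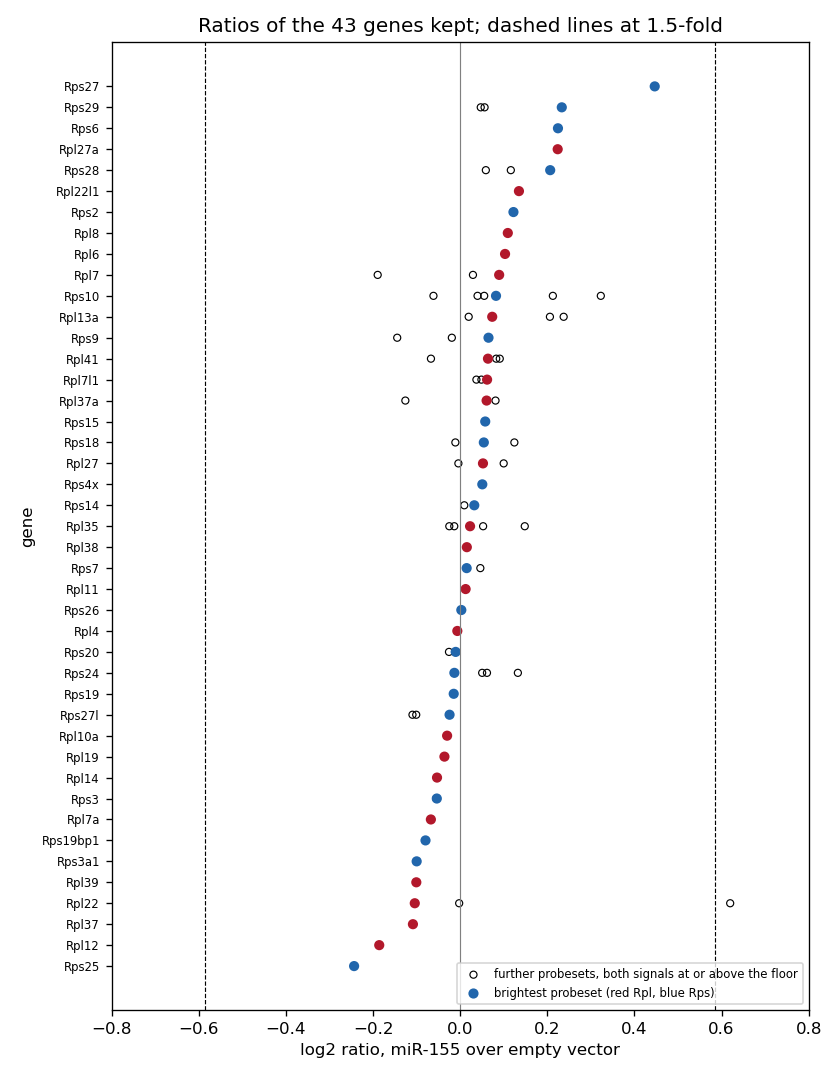
Log2 ratios of miR-155 over empty vector for the 43 genes kept, highest at the top; filled points are the brightest probeset (red Rpl, blue Rps), open circles further probesets with both signals at or above the floor, and dashed lines mark 1.5-fold. The filled points run from −0.24 for Rps25 to 0.45 for Rps27, and only the open circle of Rpl22 at 0.62 lies beyond a dashed line.

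Further probesets of the same genes, again only those with 1 symbol, gave a measure of disagreement within a gene. Of 55 further probesets 43 had both readings at or above the floor, in 20 genes, with a median of 0.047 and a range of −0.19 to 0.62. The pooled SD within a gene over all such probesets was 0.12, the same as the SD of 0.12 between the 43 genes. Both are plain SDs, which single outlying values raise. The first includes the Rpl22 probeset at 0.62 and the second Rps27 at 0.45. The robust SD between the 43 genes was 0.087. Among the 15 genes with several probesets of signal at least 4096, the SD within a gene was 0.084, against 0.075 between the 32 genes of that signal. The order of the bright members is therefore not resolved by their probesets.

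Rps29, the second highest member, had a ratio of 0.23 in its brightest probeset but 0.047 and 0.056 in the others. Rps28 had 0.21 in its brightest probeset, with 0.059 and 0.12 in the others. Rps10, with 6 probesets, ranged from −0.061 to 0.32. Rpl22 was the only member whose probesets above the floor lay more than 1.5-fold apart. Its brightest probeset read 7578 with miR-155 against 8146 with empty vector, the next 6055 with miR-155 against 6065 with empty vector (−0.0023) and the dimmest 159 with miR-155 against 103 with empty vector (0.62). For each of these genes the choice of probeset moved the ratio by more than the median of all members.

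The 12 further probesets with a reading below the floor could not be given a ratio, since no detection limit is known at that level. A probeset of Rpl27a read 16.4 on the miR-155 array and 0.70 on the empty-vector array, while the brightest probeset of Rpl27a read 262 with miR-155 against 225 with empty vector. A probeset of Rps20 read 14.0 with miR-155 against 1.23 with empty vector, while its brightest read 7764 with miR-155 against 7820 with empty vector (−0.01).

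The other 4 members did not pass the signal filter. Rpl39l, a paralog of Rpl39 active mainly in testis, read 0.93 on the miR-155 array and 5.15 on the empty-vector array. Rpl3l, a paralog of Rpl3 in heart and skeletal muscle, read 1.44 with miR-155 against 2.79 with empty vector, and Rps4l read 2.11 with miR-155 against 0.70 with empty vector. Rps16, a regular small-subunit protein, had only 1 probeset with 1 symbol, which read 1.11 with miR-155 against 2.04 with empty vector. Probesets with several symbols were not assigned to a gene, so this reading does not show whether Rps16 was expressed. The other paralogs were well above the floor. Rps27l, which p53 induces, read 4144 with miR-155 against 4215 with empty vector (−0.024), with −0.11 and −0.10 in its further probesets, and Rpl7l1 read 1043 with miR-155 against 999 with empty vector (0.062).

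Probeset names carry the manufacturer's mark for cross-hybridisation, which bears on a family with many pseudogenes. Of the 43 brightest probesets 12 had the suffix for probes that can bind other sequences (_x_at), 2 the suffix for probesets shared between genes (_s_at), 17 the suffix for several transcripts of a gene (_a_at) and 12 none. The medians were 0.043 for the 12 cross-hybridising, −0.020 for the 2 shared, 0.012 for the 17 several-transcript and 0.0081 for the 12 unmarked ones. The 12 unmarked ones were also dimmer, with a median signal of 309 against 8047 for the cross-hybridising ones. A further 98 probesets with several symbols, at least 1 of them of this family, had both readings at or above the floor. Their median was 0.019 and their robust SD 0.062. Of the 98, 3 differed by at least 1.5-fold, 2 higher and 1 lower, against 11.3% of all genes kept. The 98 were brighter, with a median signal of 7057 against 194 for all genes kept. Of 96 other genes with a signal of at least 4096, 1 differed by 1.5-fold, and the shares were not tested.

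The bright end of the scale was examined for compression of ratios. Among the 96 other genes of signal at least 4096, 55 had 102 further probesets that were dimmer than this and above the floor. The median absolute log2 ratio was 0.18 in the dimmer probesets and 0.078 in the brightest probesets of the same genes, and 70 of the 102 were farther from 0 than the brightest. For the members, 10 genes had 15 such probesets, with a median absolute ratio of 0.10 against 0.064 in the brightest, and 12 of the 15 were farther from 0. Their median signed ratio was −0.0041, and only that of Rpl22 exceeded 1.5-fold. Dimmer probesets also vary more, and the part of the upper end of the scale in the small ratios of the members was not tested.

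Genes of other functions at the same signal were read for outliers. At least as bright as the median member (7596) were 34 genes, 22 of them members, and none of the 34 differed by 1.2-fold. The highest of the others were Lgals1, encoding galectin-1, at 9687 on the miR-155 array and 8212 on the empty-vector array (0.24), and Actb, encoding beta-actin, at 8719 with miR-155 against 8184 with empty vector (0.091). The members Rps29, Rps28, Rps2 and Rpl6 made up the rest of the 6 highest. The 6 lowest were Rpl22, Rps3a1 and Rpl7a, with the laminin-binding ribosomal protein Rpsa at 8958 with miR-155 against 9484 with empty vector (−0.08), the nucleolar chaperone Npm1 at 7883 with miR-155 against 8081 with empty vector (−0.036) and Tpt1, encoding translationally controlled tumour protein, at 9178 with miR-155 against 9377 with empty vector (−0.031).

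Lowering the bound to the lower quartile of the members (4077) gave 129 genes, 97 of them no members, whose extremes were named after their values were seen. Ifitm3, an interferon-induced membrane protein that blocks virus entry, was the one gene beyond 1.5-fold, at 6543 with miR-155 against 3200 with empty vector (2.04-fold, log2 ratio 1.03). After Lgals1, the next genes outside the family were B2m, the light chain of MHC class I, at 5413 with miR-155 against 4705 with empty vector (0.20) and the actin-binding Coro1a (0.16). The lowest were lysozyme Lyz2 at 4731 with miR-155 against 6058 with empty vector (−0.36), cystatin Cst3 at 6544 with miR-155 against 8066 with empty vector (−0.30), Lyz1 (−0.27), galectin Lgals3 (−0.26), the growth factor receptor Csf1r at 5095 with miR-155 against 6040 with empty vector (−0.25) and Nhp2, a protein of small nucleolar particles (−0.23). For Csf1r the other probesets gave −0.99 and −0.96, for Lyz1 −0.25, but for Nhp2 0.095. Those of Lgals1, B2m and Coro1a gave 0.35, 0.44 and 0.27, and that of Npm1 gave 0.11, opposite to its brightest probeset. The 32 members of the same brightness ran from −0.10 to 0.23. Being fewer than the 97 other genes, they cannot be compared with those by range.

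The ribosome components outside the symbol rule lay in the same range. Rplp0, the scaffold of the stalk, read 7225 on the miR-155 array and 7124 on the empty-vector array (0.020), Rplp2, a stalk protein, 8978 with miR-155 against 9031 with empty vector (−0.0084), and Fau, which encodes a small-subunit protein fused to a ubiquitin-like domain, 5848 with miR-155 against 5906 with empty vector (−0.014). With Rpsa their median was −0.011. Other mRNAs known to start with a TOP tract, mostly elongation and initiation factors, had a median of −0.016 over 15 genes. At 1.5-fold 0 of the 15 differed, against 11.3% of all genes kept and 2.99% of other genes with signals of 1024 to 4096. Eif3h (0.16) and Nap1l1 (0.054) were highest, and Eif4b (1553 with miR-155 against 1985 with empty vector, −0.35) and Hnrnpa1 (604 with miR-155 against 758 with empty vector, −0.33) lowest. The elongation factor Eef1a1, which delivers aminoacyl-tRNA, read 9909.7 with miR-155 against 9768 with empty vector (0.021).

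Genes that build the ribosome had a lower median than the ribosomal proteins. The 23 ribosome assembly genes had a median of −0.10, and 0 differed by 1.5-fold. Of the 23, 16 lay below 0, a larger share than the 58.0% of all genes kept. They were dimmer than the ribosomal protein genes, with a median signal of 1050 against 7596. Genes outside the family with signals of 1024 to 4096 had a median of −0.061. Of these, 66.0% lay below 0 and 2.99% were beyond 1.5-fold, against 11.3% beyond it among all genes kept. The differences were not tested. Rrs1, an assembly factor of the large subunit, read 935 with miR-155 against 1336 with empty vector (−0.52) and Rrp9, a protein of the small nucleolar particle U3, read 201 with miR-155 against 248 with empty vector (−0.30). Eif6, which keeps the subunits apart, was highest at 1486 with miR-155 against 1209.5 with empty vector (0.30), followed by Nip7 (0.13). The 8 genes of RNA polymerase I and its factors had a median of −0.069 and ran from Polr1a (149 with miR-155 against 222 with empty vector, −0.57) and Ubtf (−0.34) to Polr1e (0.29) and Polr1c (816 with miR-155 against 649 with empty vector, 0.33). The median of all genes kept was −0.048.

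Mitochondrial ribosomal proteins, encoded by other genes and assembled in the mitochondrion, had a median of −0.08 over 76 genes, with 0 beyond 1.5-fold. Of the 76, 54 lay below 0, a larger share than the 58.0% of all genes kept. The median signal of the 76 was 741. Genes outside the cytosolic family with signals of 256 to 1024 had a median of −0.054. Of these, 60.9% lay below 0 and 4.24% were beyond 1.5-fold, and the differences were not tested. Among all genes kept, 11.3% were beyond 1.5-fold. The 76 ran from Mrps6 (1387 with miR-155 against 1882 with empty vector, −0.44) and Mrps5 (−0.34) to Mrpl38 (0.17) and Mrpl52 (1855 with miR-155 against 1520 with empty vector, 0.29). Of 44 kept genes with symbols Eif1 to Eif5, with a median of −0.031, 1 was beyond 1.5-fold. This was Eif2ak2 (313 with miR-155 against 162 with empty vector, 0.95), the interferon-induced kinase that phosphorylates an initiation factor and is not itself one. Eif3h (0.16) was next, and Eif4b (−0.35) and the stress kinase Eif2ak3 (126 with miR-155 against 156 with empty vector, −0.31) were lowest. Of 18 aminoacyl-tRNA synthetases, with a median of −0.01, 1 was beyond 1.5-fold, Qars (835 with miR-155 against 1304 with empty vector, −0.64). The next lowest was Farsa (−0.44), and the highest were Cars (0.29) and Eprs (0.28).

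**Figure D5:**
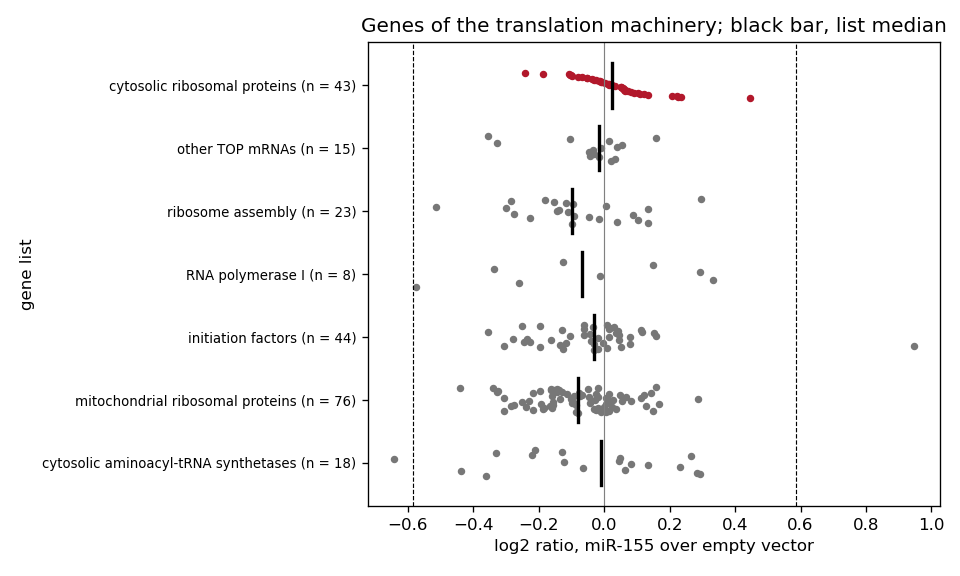
Each point is a kept gene of a list, placed by its log2 ratio of miR-155 over empty vector, and the black bar is the list median; dashed lines mark 1.5-fold. The 43 ribosomal protein genes (red) lie around 0.023, the lists of ribosome assembly and mitochondrial ribosomal proteins around −0.10 and −0.08, and the points beyond the lines are Eif2ak2 at 0.95, in the list of Eif symbols, and Qars at −0.64.

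Members with and without the searched tract at the annotated first base were set side by side. This split does not separate TOP mRNAs from others. Some genes counted as without it, such as Rpl27a and Rpl12, have such a tract beginning within 10 bases. The 7 kept genes with the tract had a median of 0.054 and ran from −0.053 for Rpl14 to 0.45 for Rps27. The 31 kept genes without it had a median of 0.0026 and ran from −0.24 for Rps25 to 0.22 for Rpl27a. The ranges overlapped, and the difference was not tested.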

How the data were processed

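RNA of 1 clone pool per group was measured on 1 array each. The deposited table holds linear intensities, 1 per probeset. The steps by which the authors summarised and scaled these intensities were not given in the sources used here, and labelling followed Affymetrix procedures per the labels. Leaving out 64 control probesets, 34945 of 45101 probesets had 1 gene symbol in the platform annotation, 932 had several and 9160 were unlisted. Symbols were checked by Entrez identifier against RefSeq (GRCm38.p6), and 0 changed. For each gene the probeset brightest in mean log2 signal was taken, and genes in the upper 50% of that mean (signal of at least 25.8) were kept. The log2 ratio is miR-155 over empty vector with no offset. With 1 array per group no test was run, and the number of arrays limits the precision. Robust SDs are median absolute deviations times 1.4826. The steps were tested on simulated ratios. Python 3.11.15, numpy 2.4.6 and pandas 2.3.3 were used. The members and lists were chosen with earlier results of these data known. Named were the 8 highest and 8 lowest members, the 5 brightest and 3 dimmest, all paralogs, members with discordant probesets, the 2 highest and 2 lowest of each further list, and the 6 highest and 6 lowest genes as bright as the median member. Other probeset summaries, an offset, scalings and signal filters were tried.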

Additional observations from a re-analysis of the deposited data

Results flagged for a closer look

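Outside the genes' brightest probesets, 43 further probesets and 98 with several symbols had both readings at or above the floor. Of these, 3 were at least 1.5-fold higher on the miR-155 array. This is a smaller share than the 5.32% of all genes kept, but those were dimmer. Their median signal was 194, against 7057 for the 98 probesets. Of 96 other genes with a signal of at least 4096, 1 was 1.5-fold higher, and the shares were not tested. The dimmest probeset of Rpl22 read 159 on the miR-155 array and 103 on the empty-vector array (log2 ratio 0.62). Among the probesets with several symbols, 1 read 98.3 with miR-155 against 62.1 with empty vector (0.66) and 1 read 48.2 with miR-155 against 31.6 with empty vector (0.61). In the lower direction, 1 probeset with several symbols read 103 with miR-155 against 167 with empty vector (−0.70), farther from 0 than any of these. The 3 higher ones were dim, in a range where other genes had a robust SD of 0.31 or more, and the bright probesets of Rpl22 gave −0.10 and −0.0023.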

How the results depend on the processing

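The median of the ribosomal protein genes stayed between 0.0019 (quantile normalisation) and 0.071 (median of the genes kept set to 0), above the median of all genes in each of the 8 alternatives run. The count of members beyond 1.5-fold was 0 in 6 of them. It was 2 with the mean of all probesets (Rpl27a at 2.38 and Rps20 at 0.84, both with a probeset below the floor) and 4 with no filter on dim genes, which adds the 4 members below it. The count beyond 1.2-fold, added after seeing the data, was 1, and became 7 with the mean of all probesets, 5 with no filter, 4 with the median set to 0, 2 with quantile normalisation, and 0 with an offset of 50 and in the upper 25% of signal. The difference between the subunit medians, −0.013, turned to 0.044 without the _s_at and _x_at probesets and to 0.023 when only the upper 25% of signal was kept. Without Rps19bp1 it was −0.023. The bound for bright genes follows the members, so the count beyond 1.5-fold of 1 became 50 of 1363 genes with the mean of all probesets, 57 of 1770 without the _s_at and _x_at probesets, 41 of 1334 with no filter, 0 of 58 in the upper 25% of signal and 0 of 105 without Rps19bp1, an alternative chosen after seeing the data. Of single members, 11 of 43 ratios moved by more than 0.087 with the mean of all probesets, 3 of 36 without the marked probesets and 1 with an offset of 50 (Rps27, 0.26). No paired analysis was possible because each group has 1 array. Leaving out a replicate was likewise not possible.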
